A study of Mus musculus with 10 samples.

Results

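Patl2-/- and WT germinal vesicle (GV) oocytes were compared on 5 Affymetrix Clariom D mouse arrays of a series of 10, with 3 Patl2-/- arrays and 2 WT arrays chosen by the stage and genotype in their titles. The other 5 arrays held MII oocytes, entered the estimate of the spread, and are set beside the GV differences near the end. Each array held total RNA of a pool of 20 to 32 oocytes, taken 44 h after females received 5 units of PMSG, a gonadotropin that drives follicle growth. All oocytes of both genotypes had been stripped of follicular cells with hyaluronidase and a micropipette. Patl2-/- females carried an allele with an inserted LacZ cassette and a deletion of 1 exon, and WT females carried no such change. The labels call the arrays biological replicates, but which animals gave each pool is not given in the sources used here, so p-values measure the spread between these samples. Values are log2 expression levels of transcript clusters, each a set of probes for 1 gene or transcribed region.

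Patl2 is an oocyte member of the Pat1 family of RNA-binding proteins, which in other cells link translational repression to mRNA decapping. A GV oocyte is arrested in prophase I of meiosis with an intact nucleus. While it grows it makes and stores a large pool of mRNA, and once fully grown it falls silent in transcription and draws on that pool through maturation and into early development. A difference in level at this stage can therefore come from synthesis, storage or decay, which an array cannot tell apart. In pooled oocytes, fewer copies in every oocyte and fewer oocytes with the transcript cannot be told apart either.

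Patl2 itself was the transcript with the largest fall of all 65956 clusters tested. Its cluster measured 11.70 and 10.92 in WT oocytes and 7.71, 7.36 and 8.07 in Patl2-/- oocytes. The groups did not overlap, and the difference of -3.60 (standard error 0.27, adjusted p = 0.0126, limma with Benjamini-Hochberg adjustment over all clusters) is a 12.1-fold lower level. The Patl2-/- arrays stayed above the level under which 90% of negative controls fall, which lay at 6.14 to 6.32 on these arrays and serves below as the background level, and the cluster also holds probes outside the deleted exon. The 20 measured genes closest to Patl2 on chromosome 2 gave no call, and their median difference was 0.03. Of these 6 had an unadjusted p under 0.05 (limma), against 12.0% of all genes and 24.3% of genes above background. Without overlap 1 of the 20 was lower and 5 were higher, against 3589 and 3619 of all 30795 genes. Among the 20, Wdr76 measured 13.69 and 13.35 in WT and 14.13, 14.06 and 14.07 in Patl2-/- oocytes (adjusted p = 0.135), and the other 19 lay closer to 0.

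The pools carried an oocyte profile in both genotypes. All 15 oocyte genes lay above the background level, with a median level of 15.5 in WT and 15.4 in Patl2-/- oocytes, and none was called (2 with an unadjusted p under 0.05, limma). Of 19 measured granulosa and cumulus cell markers 6 lay above the background level in at least 1 genotype, with medians of 5.52 and 5.45. None of these was called either (3 with an unadjusted p under 0.05, limma), nor were any of 8 theca and stroma markers (0 with an unadjusted p under 0.05) or 5 vessel and blood markers (1). Inha, the inhibin subunit of granulosa cells, was the exception in level, at 11.04 and 7.76 in WT and 10.36, 10.51 and 10.83 in Patl2-/- oocytes, so the WT arrays themselves lay on both sides of the Patl2-/- arrays. Fosb, an immediate early transcription factor, split the WT arrays likewise, at 10.27 and 7.06 against 8.33, 8.09 and 7.83. Nr4a1, an orphan nuclear receptor of the immediate early genes, measured 7.72 and 4.86 against 5.25, 5.53 and 5.16. The part of this split between the WT arrays in the results below was not tested. Correlations across clusters between GV arrays lay at 0.987 to 0.993 with no order by genotype, and the number of arrays limits the precision.

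With 0.05 as the limit of the adjusted p, 60 clusters were called as falls in Patl2-/- GV oocytes (0.091% of those tested) and 20 as rises (0.0303%). Of the falls, 36 were clusters of 1 established gene, 6 of 1 gene with a predicted (Gm) name, 6 of several genes and 12 without a gene name in the annotation used here. Of the rises these were 12, 2, 0 and 6. Every called cluster separated the 2 WT from the 3 Patl2-/- arrays without overlap, as did 9.17% of all clusters downwards and 11.8% upwards. Of the 60 falls 33 (55.0%) were at least 2-fold, and of the 20 rises 12 (60.0%) were. The calls rested on the whole series. No cluster was called from the 5 GV arrays alone (4998 with an unadjusted p under 0.05, limma) or without Patl2-/- GV replicate 1 (5562), and the ANOVA of the methods called 1 fall and 2 rises after adjustment.

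**Figure D1:**
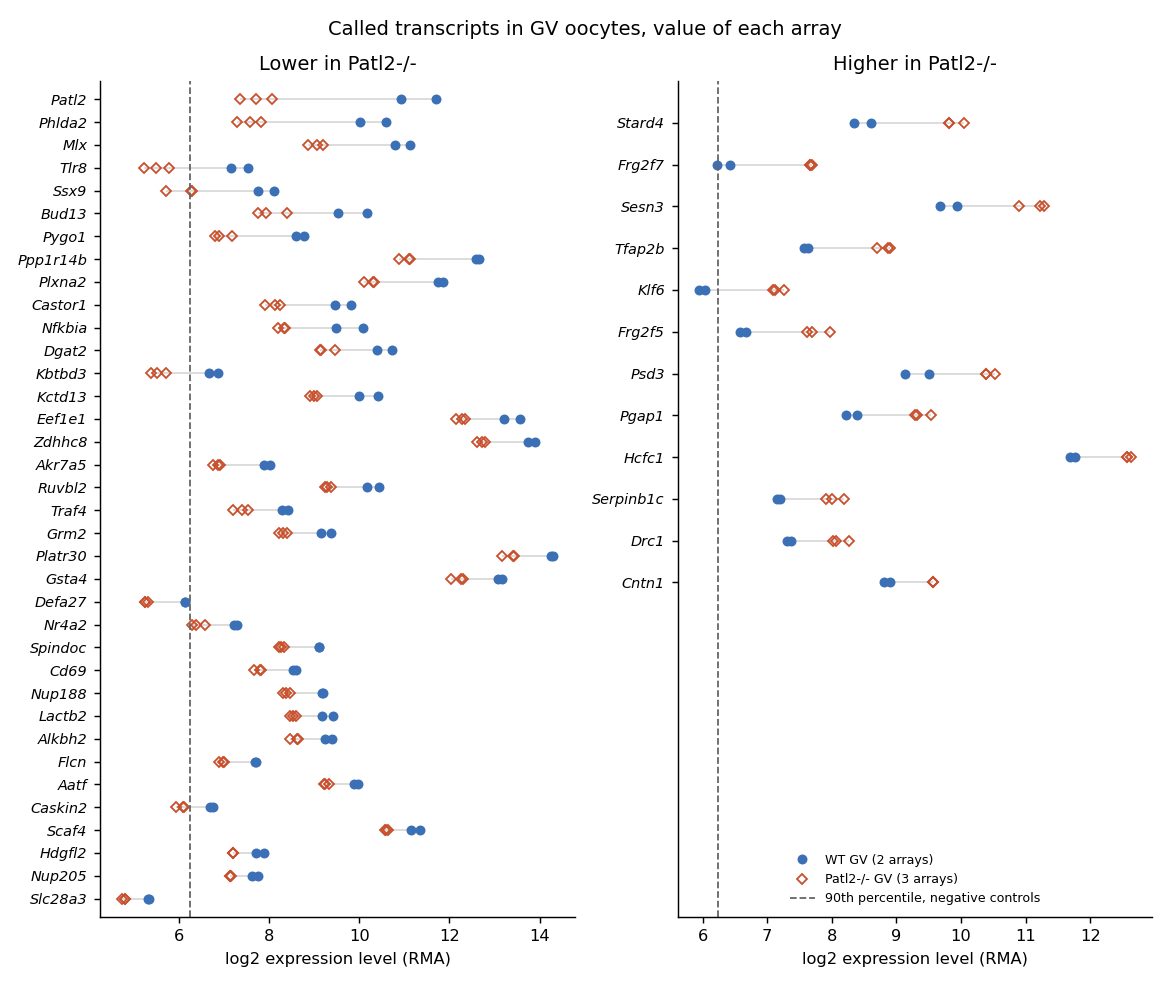
Log2 expression level (x axis) of each called transcript with an established gene name (y axis) on the 2 WT arrays (filled circles) and the 3 Patl2-/- arrays (open diamonds), in order of the size of the difference. The dashed line is the mean 90th percentile of negative controls over the WT arrays, 6.24, and the groups do not overlap for any of the 36 falls and 12 rises shown.

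Among called established genes, Phlda2 had the largest fall after Patl2, and Mlx the next. Phlda2, an imprinted gene whose product limits placental growth, measured 10.01 and 10.59 in WT and 7.82, 7.57 and 7.28 in Patl2-/- oocytes, a 6.72-fold difference (adjusted p = 0.0437, limma). Every Patl2-/- array lay more than 2 log2 units below both WT arrays. Mlx, the dimerisation partner of the glucose-responsive factors MondoA and ChREBP, measured 10.80 and 11.13 against 8.86, 9.06 and 9.20, a 3.80-fold fall (adjusted p = 0.026). The other 14 measured genes of the Max and Mlx network gave no call. Pygo1, a co-activator of Wnt target genes, measured 8.59 and 8.76 against 6.79, 6.89 and 7.18 (3.30-fold, adjusted p = 0.0162). The pairs of values within a genotype were close for this gene, with an SD of 0.12 in WT and 0.20 in Patl2-/- oocytes. Bud13, a subunit of the RES complex that takes part in pre-mRNA splicing, measured 9.53 and 10.17 against 7.92, 7.75 and 8.39 (3.55-fold, adjusted p = 0.0482). It was 1 of 33 measured RES and U snRNP proteins, of which no other was called.

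Falls were also called for components of signalling. Plxna2, a receptor for semaphorins, measured 11.86 and 11.75 in WT and 10.33, 10.29 and 10.11 in Patl2-/- oocytes (2.95-fold, adjusted p = 0.0111, limma), with the 5 values in 2 tight sets. Of 29 measured semaphorins and plexins it was the only call. Ppp1r14b, an inhibitor of protein phosphatase 1, measured 12.65 and 12.58 against 11.10, 11.12 and 10.87 (3.00-fold, adjusted p = 0.0344). Nfkbia, the inhibitor that retains NF-kB in the cytoplasm, measured 10.09 and 9.47 against 8.34, 8.19 and 8.33 (2.82-fold, adjusted p = 0.0437). The spread in WT was wider here, with an SD of 0.43 against 0.08. Nfkbia was 1 of 2 calls among 38 measured members of a list of immediate early and stress genes, and Klf6, which rose, was the other. That list did not hold Nr4a2, whose fall is given next, so the count covers the listed genes alone. Smaller falls were seen for Traf4, an adaptor of TNF receptor family signalling, at 8.28 and 8.41 against 7.20, 7.52 and 7.39 (adjusted p = 0.0344), Grm2, a metabotropic glutamate receptor, by 0.95 (adjusted p = 0.026), and Nr4a2, an orphan nuclear receptor, by 0.84 (adjusted p = 0.034).

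Genes of the mTORC1 pathway, which couples nutrients to growth, moved in both directions. Castor1, the arginine sensor that holds mTORC1 off when arginine is scarce, measured 9.47 and 9.82 in WT and 7.90, 8.14 and 8.23 in Patl2-/- oocytes (2.94-fold lower, adjusted p = 0.0177, limma). Flcn, folliculin, which acts on the Rag GTPases at the lysosome, measured 7.69 and 7.68 against 6.89, 6.99 and 6.98 (adjusted p = 0.026). In contrast, Sesn3, a sestrin that restrains mTORC1, measured 9.94 and 9.67 against 11.21, 10.89 and 11.28 (2.51-fold higher, adjusted p = 0.0408). These were the 3 calls among 36 measured genes of mTORC1 control, whose median difference was 0.01. Of 11237 genes above background, 40 were called lower and 14 higher. The list was chosen with earlier results of these data known. The kinase complex subunit Mlst8 measured 8.48 and 8.45 against 8.92, 8.82 and 8.91 and the GATOR1 subunit Nprl2 14.00 and 14.29 against 13.38, 13.66 and 13.80, and neither was called (adjusted p = 0.287 and 0.347).

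Several enzymes and factors that handle RNA or protein fell as well. Dgat2, which makes triacylglycerol, measured 10.39 and 10.73 in WT and 9.13, 9.45 and 9.15 in Patl2-/- oocytes (-1.32, adjusted p = 0.026, limma). Kctd13, an adaptor of the Cullin 3 ubiquitin ligase, measured 10.00 and 10.40 against 8.90, 9.05 and 8.99 (2.33-fold, adjusted p = 0.026). In both genes the WT and Patl2-/- arrays lay well apart. Eef1e1, a scaffold of the multi-synthetase complex, measured 13.21 and 13.57 against 12.27, 12.14 and 12.34 (2.21-fold, adjusted p = 0.0499), and Zdhhc8, a palmitoyltransferase, 13.75 and 13.91 against 12.62, 12.78 and 12.72 (2.18-fold, adjusted p = 0.0174). Akr7a5, an aldo-keto reductase, and Ruvbl2, an ATPase of chromatin remodelling complexes, fell 2.15-fold and 2.00-fold. Gsta4, which conjugates glutathione to lipid peroxidation products, fell by 0.92 from a high level of 13.12 in WT, and was the only call of 42 glutathione S-transferases and antioxidant enzymes. Nup188 and Nup205, neighbours in the inner ring of the nuclear pore, fell by 0.80 and 0.55, and Scaf4, which prevents premature termination of transcription, by 0.65. Platr30, Spindoc, Cd69, Lactb2, Alkbh2, Aatf and Hdgfl2 fell less than 2-fold. The falls of genes at background in 1 or both genotypes are given with the background level below.

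Among called established genes, Stard4 had the largest rise, followed by the pseudogene Frg2f7, Sesn3, Tfap2b and Klf6. Stard4, which carries cholesterol between membranes, measured 8.34 and 8.60 in WT and 10.05, 9.82 and 9.81 in Patl2-/- oocytes (2.68-fold, adjusted p = 0.0482, limma). It was the only call of 28 genes of cholesterol synthesis, uptake and transfer. Hsd17b7, of the same list, measured 10.51 and 10.30 against 11.28, 11.23 and 11.12 and missed the threshold (adjusted p = 0.0836). Tfap2b, an AP-2 transcription factor, measured 7.56 and 7.62 against 8.87, 8.70 and 8.90 (2.35-fold, adjusted p = 0.0138), with all 3 Patl2-/- arrays more than 1 above WT. Its relative Tfap2c, at 7.24 and 7.13 against 5.94, 5.96 and 6.55, differed the other way without reaching the adjusted threshold (adjusted p = 0.135). Klf6, a Krüppel-like factor, measured 6.03 and 5.95 against 7.09, 7.12 and 7.25 (adjusted p = 0.0332). Of the 22 AP-2 and Krüppel-like factors Tfap2b and Klf6 were the 2 calls.

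Hcfc1, a chromatin-bound transcriptional coregulator, had close values within each genotype, at 11.68 and 11.76 in WT and 12.56, 12.63 and 12.57 in Patl2-/- oocytes (1.82-fold, adjusted p = 0.026, limma). Pgap1, which remodels GPI anchors, measured 8.39 and 8.22 against 9.32, 9.29 and 9.54 (2.12-fold, adjusted p = 0.026). Psd3, an exchange factor for the GTPase Arf6, measured 9.51 and 9.13 against 10.39, 10.52 and 10.39 (2.16-fold, adjusted p = 0.0344). Serpinb1c, a serpin, Drc1, a subunit of the nexin-dynein complex of cilia, and Cntn1, a cell adhesion molecule, rose by 0.86, 0.78 and 0.70. The 3 Patl2-/- arrays read the same value, 9.56 to 3 decimals of the deposited scale, for Cntn1, and likewise 7.19 for Hdgfl2 among the falls. Ties of this kind were seen in 3 of the 80 called clusters and 1294 of all clusters (2.0%), and in 97 of the 16141 above background (0.6%). They make the spread of such a cluster look small.

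**Figure D2:**
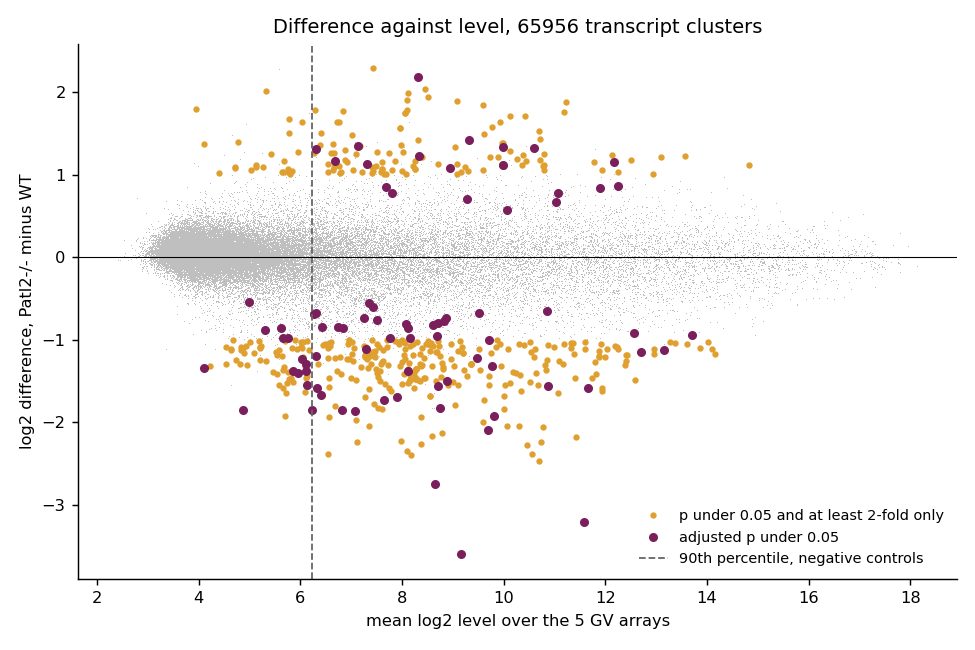
Log2 difference of Patl2-/- minus WT GV oocytes (y axis) against the mean log2 level over the 5 GV arrays (x axis) for 65956 transcript clusters (grey points). Purple points are the 80 clusters called by adjusted p, orange points those that passed only an unadjusted p under 0.05 and a 2-fold difference, and the dashed line is the mean 90th percentile of the negative controls at 6.24. Most called clusters lie to the right of that line, on both sides of 0.

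The level of a changed cluster against the negative controls sets what its fold means, since differences are compressed near background. Among the 60 falls 39 clusters exceeded the background level in both genotypes, 15 only in WT, and 6 in neither. Among the 20 rises these numbers were 18, 2 and 0, where the 2 exceeded it only in Patl2-/- oocytes. For a gene above background in 1 genotype only, the fold is a bound. Tlr8, the endosomal sensor of single-stranded RNA, measured 7.54 and 7.14 in WT and 5.22, 5.77 and 5.48 in Patl2-/- oocytes, at least 2.16-fold lower (adjusted p = 0.018, limma). Ssx9, of the SSX family of germ cell and tumour antigens, measured 7.75 and 8.10 against 5.71, 6.26 and 6.28, at least 3.16-fold lower (adjusted p = 0.0472), with 1 Patl2-/- array above its background level. Kbtbd3, a Kelch domain protein, was at least 1.45-fold lower at 6.66 and 6.87 against 5.51, 5.36 and 5.71, and Caskin2 at least 1.40-fold. Klf6 was at least 1.89-fold higher. Defa27, a defensin, at 6.12 and 6.13 against 5.31, 5.23 and 5.25, and Slc28a3, a nucleoside transporter, lay below the background level in both genotypes, so no fold is given for them.

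Among the 16141 clusters with a group mean above the background level (24.5% of all), the same test called 192 falls (1.19%) and 105 rises (0.651%), which include 74 of the 80 calls above. By level, calls were rarest at the bottom. Of 41501 clusters with a mean level under 5, 3 fell and 0 rose. Between 8 and 10, 20 of 4011 fell and 7 rose, the highest share of any range (0.673%). Above 12, where 2915 clusters of the most abundant transcripts lie, 4 fell and 2 rose.

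Some clusters with large changes had no gene name in the annotation used here, and the 3 given were singled out after their values were seen. TC0X00000003 on chromosome X measured 13.32 and 13.67 in WT and 10.55, 9.90 and 10.43 in Patl2-/- oocytes (-3.21, adjusted p = 0.0162, limma). TC0200002285 on chromosome 2 measured 8.01 and 8.35 against 6.29, 6.25 and 6.41. The largest called rise, TC1200000210 on chromosome 12, measured 7.01 and 6.99 against 9.09, 9.19 and 9.25 (2.18, adjusted p = 0.0126). All 5 arrays were above the background level for each of these, so none is a bound.

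The study used as its threshold a 2-fold difference together with p under 0.05 before adjustment. With the p from limma, whose spread is pooled over all 10 arrays, 339 clusters were lower (0.514%) and 139 higher (0.211%) in Patl2-/- oocytes. With the p from the ANOVA of the methods these were 235 and 86. Both genotypes exceeded the background level for 252 of the lower and 92 of the higher clusters, only the brighter genotype for 62 and 29, and neither for 25 and 18. Without WT GV replicate 1 there were 772 lower and 230 higher clusters, and without WT GV replicate 2 there were 387 and 230. The genes that follow passed this threshold but not the adjusted one, so their values are descriptions.

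Several were of secreted or reproductive tract products. Prl8a2, a prolactin family member of the decidua, has 2 clusters, of which the more different measured 9.28 and 9.95 in WT and 6.13, 7.68 and 7.86 in Patl2-/- oocytes (-2.39, adjusted p = 0.185, limma). Izumo4, a relative of the sperm fusion protein Izumo1, measured 9.26 and 9.37 against 7.30, 7.25 and 6.72 (-2.23, adjusted p = 0.0632). Crabp2, a carrier of retinoic acid, measured 12.27 and 13.18 against 10.39, 10.49 and 10.77 (-2.18, adjusted p = 0.0847). The spread between the 2 WT arrays of Crabp2 was 0.91, while that of Izumo4 was 0.11. Cstb, a cysteine protease inhibitor, differed by -2.27, the cytokine Il20 by -1.99, the kallikrein-related Klk15 by -1.79, and the small nucleolar RNA Snord123 was at least 4.10-fold lower, with adjusted p of 0.16, 0.108, 0.262 and 0.0835. Pgrmc1, a membrane-associated progesterone receptor component, measured 9.22 and 9.09 against 7.65, 8.16 and 8.01 (adjusted p = 0.0967).

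Upwards, Krt73, a keratin of the hair follicle sheath, measured 7.48 and 8.39 in WT and 9.50, 10.25 and 9.73 in Patl2-/- oocytes (1.89, adjusted p = 0.148, limma), and Krt84, a hair keratin, 7.78 and 7.15 against 8.99, 8.78 and 8.89 (1.42, adjusted p = 0.107). The other 45 measured keratins did not pass this threshold, and 7 of the 47 lay above the background level. Enpp3, an ectonucleotide pyrophosphatase, measured 7.23 and 6.82 against 8.37, 8.67 and 9.37 (1.78, adjusted p = 0.0773). Zp4-ps, the pseudogene that remains of the zona pellucida gene Zp4 in the mouse, measured 8.89 and 8.56 against 10.40, 9.93 and 10.31 (1.49, adjusted p = 0.0508). The groups of Zp4-ps did not overlap, and it was called in 1 of the 10 fits without 1 array. Bcl2l15, Cltrn and Olfr1164 exceeded background only in Patl2-/- oocytes, at least 2.21-fold, 1.70-fold and 1.69-fold higher. Wfdc21 and 2 clusters of D13Ertd608e differed by 1.57, 1.64 and 1.43, the last pair with WT arrays far apart.

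Chromosome X held 78 of the 339 lower clusters (23.0%) but 7 of the 139 higher ones (5.0%), against 5.14% of all clusters. The excess was not seen among established genes. Of clusters with 1 such gene, 5 of 125 lower ones lay on X (4.0%), the share of all tested (4.1%). Of clusters with 1 predicted gene, 38 of 65 lower ones did (58.5%, against 10.4% of those tested), and of clusters with several genes 25 of 40 (62.5%, against 8.4%). Among clusters without a gene name 10 of 109 lower ones lay on X (9.2%, against 4.1% of those tested). Of the 78, 12 were annotated to Slx, Slxl1 or predicted genes grouped with them, ampliconic genes best known from spermatids, and 13 to Gm10486 and its copies. Probes cannot separate near-identical copies. The 78 clusters gave 64 distinct sets of values, and 6 of them, annotated to different predicted genes, all read 8.73 and 9.60 in WT and 7.47, 7.72 and 7.88 in Patl2-/- oocytes. The cluster annotated to Slx and Gm2003 ran in parallel, at 7.70 and 8.38 against 6.62, 6.79 and 7.02 (adjusted p = 0.147, limma). They are therefore not 78 separate results. Of the 60 adjusted falls 12 lay on X, and 6 of these were clusters of Slxl1 or its predicted relatives, each below the background level in Patl2-/- oocytes.

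**Figure D3:**
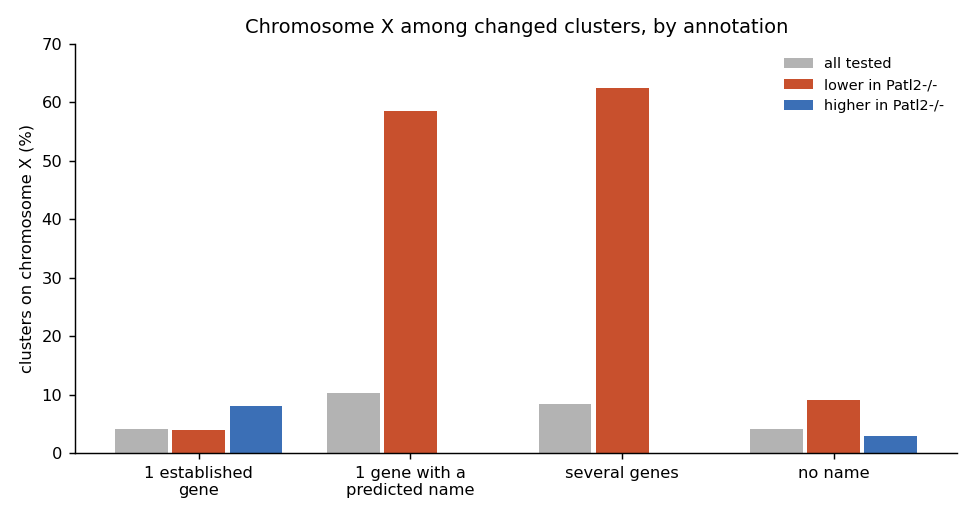
Share of clusters on chromosome X in percent (y axis) for 4 kinds of annotation (x axis), among all tested clusters, clusters lower and clusters higher in Patl2-/- GV oocytes at the threshold of the study. Lower clusters with a predicted gene name (58.5%) or several genes (62.5%) were mostly on X, while those with 1 established gene matched the tested share (4.0% against 4.1%).

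Members of other multicopy families measured alike. The Frg2f pseudogenes, relatives of FRG2 of the human facioscapulohumeral dystrophy region, have 13 clusters with 11 distinct sets of values. Of these 12 measured higher in Patl2-/- oocytes, 8 past the threshold of the study, all on chromosome 14. Frg2f7 measured 6.22 and 6.42 in WT and 7.66, 7.69 and 7.66 in Patl2-/- oocytes (adjusted p = 0.0498, limma) and Frg2f5 6.67 and 6.58 against 7.61, 7.97 and 7.70 (adjusted p = 0.0472), and both rose. Frg2f10 and Frg2f13 read identical values on every array, 7.06 and 6.89 against 8.05, 7.96 and 8.11. The Zscan4 genes, known as markers of 2-cell embryos and a fraction of embryonic stem cells, have 7 clusters, all on chromosome 7, all lower in Patl2-/- oocytes by 0.89 to 1.02. Zscan4d measured 8.71 and 8.48 against 7.32, 7.74 and 7.72 (adjusted p = 0.13), and none of the 7 was called. Shared sequence among copies means that each family counts closer to 1 observation than to 13 or 7, and the families were chosen after their values were seen.

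Mitochondrial tRNAs lay to 1 side. All 13 that are measured alone were lower in Patl2-/- oocytes, with a median of -0.85 against 0.01 over all genes and -0.03 over genes above background. The arrays of the genotypes did not overlap for 8 of the 13, and 5 passed the threshold of the study. None passed the adjusted one over all clusters (8 with an unadjusted p under 0.05, limma). Among clusters above background alone, 3 of the 13 were called lower, against 140 of 11237 genes. Over all genes above background, 20.6% were lower without overlap, 1.62% were lower at the threshold of the study and 24.3% had an unadjusted p under 0.05. The tRNA for lysine, mt-Tk, measured 11.59 and 11.61 in WT and 9.87, 10.18 and 10.11 in Patl2-/- oocytes (adjusted p = 0.0633), and that for phenylalanine, mt-Tf, differed by -1.84 (adjusted p = 0.0633). The WT arrays were close together for mt-Tk. For mt-Th, in contrast, the WT arrays read 12.20 and 13.42 against 11.83, 11.90 and 12.01. WT GV replicate 2 was the higher WT array for all 13, and without it the median difference was -0.29, without WT GV replicate 1 it was -1.41. These tRNAs are cut from the polycistronic transcripts of the mitochondrial genome and are very short.

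Ligands and receptors of the ephrin system, which signals between touching cells, differed in opposite directions. Efna1 measured 8.88 and 10.57 in WT and 7.28, 7.75 and 7.36 in Patl2-/- oocytes (-2.26, adjusted p = 0.131, limma). Efna2 measured 8.77 and 9.03 against 7.45, 7.87 and 7.52 (-1.28). Efna4 and the receptor Ephb4 differed by -1.59 and -1.09. The receptor Epha4 lay the other way, at 10.86 and 10.65 against 11.35, 11.60 and 11.71 (0.80). Of 21 measured members 4 were lower and 0 higher at the threshold of the study and none was called with the adjusted p over all clusters (9 with an unadjusted p under 0.05), and the median was -0.01. Among clusters above background alone, 3 lower and 1 higher member passed. Efna1 was not called over all clusters, its adjusted p moved with the array left out, and its 2 WT arrays lay far apart.

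**Figure D4:**
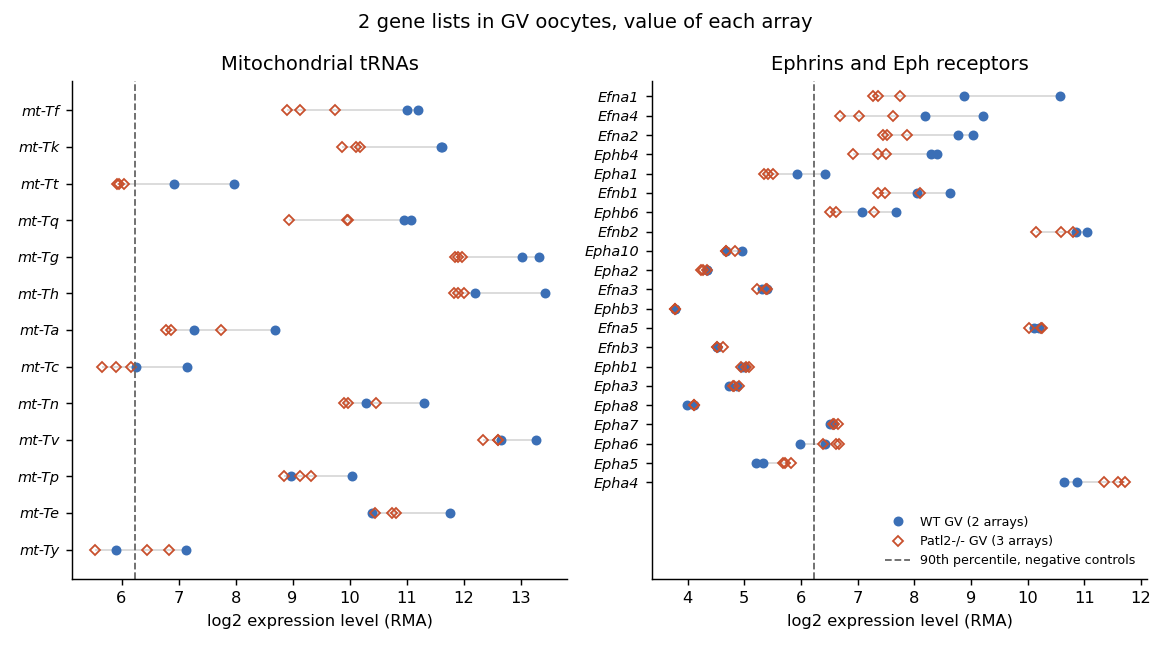
Log2 expression level (x axis) of mitochondrial tRNAs (left) and of ephrins and Eph receptors (right) on the 2 WT (filled circles) and 3 Patl2-/- GV arrays (open diamonds), in order of the difference. The dashed line is the mean 90th percentile of the negative controls at 6.24. All 13 tRNAs are lower on average in Patl2-/- oocytes, and Epha4 is the clearest difference upwards on the right.

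Transcripts that the oocyte is best known to depend on gave no call. Of 29 measured factors of mRNA storage and decapping, which include the partners with which Pat1 proteins act, none was called (3 with an unadjusted p under 0.05, limma), and their differences ran from -0.35 to 0.50. The helicase Ddx6 measured 8.76 and 7.84 in WT and 8.96, 8.99 and 8.44 in Patl2-/- oocytes, and the decapping enzyme Dcp2 10.01 and 10.19 against 10.44, 10.46 and 10.53. None of 29 genes of prophase arrest and meiotic resumption was called (7 with an unadjusted p under 0.05). Marf1, an oocyte RNA-regulating factor of meiosis, was closest to the threshold at 14.32 and 14.26 against 14.76, 14.80 and 14.76 (adjusted p = 0.0633). None of 19 genes of the subcortical maternal complex and other maternal effect genes (4), of 15 oocyte transcription factors (5) or of 13 oocyte-secreted ligands (8) was called, where the numbers in brackets had an unadjusted p under 0.05, as did 24.3% of genes above background and 9.23% of all clusters. Sohlh2 and Tbpl2, both oocyte transcription factors, were lower at the threshold of the study, with differences of -1.06 and -1.01 (adjusted p = 0.473 and 0.331). Fgf8, which oocytes send to cumulus cells, measured 7.10 and 8.28 against 6.34, 6.53 and 6.50 (-1.23, adjusted p = 0.172).

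Larger machines showed small shifts that moved with 1 array, though those of Mediator and of the cytosolic ribosomal proteins kept their sign. The 32 Mediator subunits had a median of -0.31, from -0.42 to -0.13 with 1 GV array left out. Of them 24 were below 0, 17 had an unadjusted p under 0.05 (limma), 2 were lower at the threshold of the study and none was called. Over genes above background these shares were 54.4%, 24.3% and 1.62%. Without overlap 15 subunits were lower and 3 higher, against 2315 and 1696 of 11237 genes above background. Med29 measured 10.77 and 11.25 in WT and 8.87, 9.77 and 9.35 in Patl2-/- oocytes (-1.68, adjusted p = 0.129, limma) and Med11 9.42 and 10.26 against 7.82, 8.79 and 8.25 (-1.55, adjusted p = 0.135). Med1 lay the other way at 11.60 and 11.57 against 12.02, 11.94 and 12.07 (adjusted p = 0.128). The medians were -0.13 for 74 mitochondrial ribosomal proteins, -0.14 for 39 cytosolic ribosomal proteins, -0.08 for 90 oxidative phosphorylation subunits and 0.03 for 46 proteasome subunits, and no member was called (17, 8, 7 and 3 with an unadjusted p under 0.05). Without WT GV replicate 2 these medians were 0.03, -0.03, 0.07 and 0.17, and that of Mediator -0.13. Without WT GV replicate 1 they were -0.31, -0.28, -0.23, -0.15 and, for Mediator, -0.42.

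Among 38 genes of the spindle and kinetochore, 1 was lower and 2 higher at the threshold of the study. None was called with the adjusted p over all clusters (12 with an unadjusted p under 0.05, limma). Over genes above background these shares were 1.62% lower, 0.578% higher and 24.3% with such a p. Among clusters above background alone, 3 of the 38 were called lower and 0 higher, against 140 and 75 of 11237 genes. Prr11 measured 7.90 and 7.44 in WT and 9.09, 9.13 and 8.42 in Patl2-/- oocytes (1.21, adjusted p = 0.215), and its head-to-head neighbour Ska2, a subunit of the SKA complex at kinetochores, 8.39 and 8.41 against 9.59, 9.45 and 9.54 (1.13, adjusted p = 0.147). The cytoskeletal protein Ccdc69 lay the other way at 14.70 and 14.56 against 13.56, 13.74 and 13.52 (-1.02, adjusted p = 0.0524). None of 15 genes of the DNA methylation machinery, 28 RNA polymerase subunits, 23 replication-dependent histones, 16 tubulins, 69 small nucleolar and Cajal body RNAs, 15 spliceosomal RNAs, 47 keratins, 373 Zfp genes, 920 microRNAs or 1229 olfactory receptors was called (0, 10, 2, 3, 7, 1, 4, 54, 61 and 59 with an unadjusted p under 0.05). In the same order 11, 27, 8, 13, 24, 8, 7, 194, 127 and 33 lay above the background level. For lists mostly at background the absence of calls says little. Of 60 serpins Serpinb1c was the only call, and of 40 listed X-linked multicopy germ cell genes with a cluster of their own Ssx9 was. The latter count does not include a called cluster of Gm14598, a predicted relative of Slxl1 on X (adjusted p = 0.0111, limma). Of 30 genes the study names for GV or MII oocytes 7 fell and 22 were lower at the threshold of the study, but these were chosen on the same samples and are not independent evidence.

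Gene length moved with the difference. Among 8364 protein-coding genes above the background level the median difference was -0.12 in the shortest of 5 length groups of equal size (up to 9.19 kb), then -0.05, -0.02 and 0.03, and 0.05 in the longest group (77.6 kb and more). The shortest group held 53 lower and 9 higher genes at the threshold of the study, the longest group 7 and 6. The adjusted falls above background numbered 10, 10, 7, 4 and 2 from the shortest to the longest group. The median length of the 35 protein-coding genes called lower was 17.2 kb, against 54.6 kb for the 10 called higher and 27.0 kb for all above background. By array, the trend lay in 1 sample of each genotype. In WT GV replicate 2 the median deviation from the mean of the 5 arrays was 0.16 in the shortest and -0.05 in the longest group, and in Patl2-/- GV replicate 2 it was -0.09 and 0.10, while the other 3 arrays stayed closer to 0 at both ends. Without WT GV replicate 2 the medians of the shortest and longest group were -0.03 and 0.01, and without Patl2-/- GV replicate 2 they were -0.10 and 0.02. The part of this trend in the results above was not tested.

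**Figure D5:**
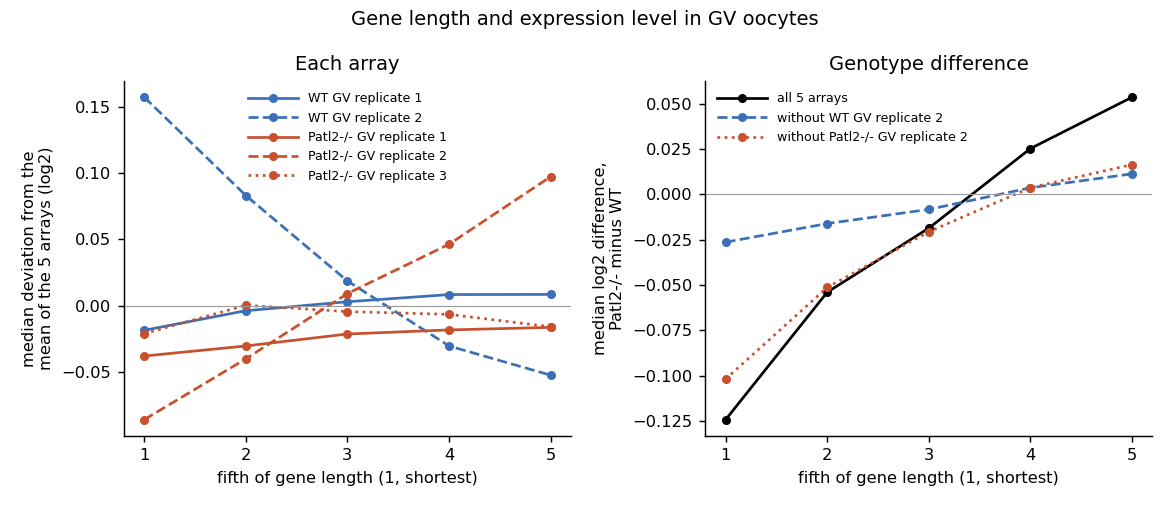
Left, median deviation of each GV array from the mean of the 5 arrays (y axis, log2) by gene length in 5 equal groups (x axis, from 1, the shortest, to 5) for 8364 protein-coding genes above background; right, median log2 difference of Patl2-/- minus WT in the same groups with all arrays, without WT GV replicate 2 and without Patl2-/- GV replicate 2. Replicate 2 of each genotype slopes in the opposite direction, and the difference is nearly flat, from -0.03 to 0.01, without WT GV replicate 2.

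The differences at GV were set beside those at MII, after ovulation and arrest in metaphase II. The differences come from other arrays, but the calls at both stages share 1 estimate of the spread. Of the 60 falls 56 were also below 0 at MII and 27 were called there, against 55.2% and 0.462% of all clusters. Of the 20 rises 20 were above 0 and 15 called, against 44.8% and 0.367%. Mlx differed by -1.82 at MII, Bud13 by -1.87, Plxna2 by -1.48, Pygo1 by -1.57, Stard4 by 1.42 and Sesn3 by 1.34, all close to their values at GV. Castor1, Phlda2, Ssx9 and Kbtbd3 differed by -0.27, -0.55, -0.09 and -0.08 at MII. The background level of the MII arrays ran from 6.17 to 6.46. Castor1 averaged 9.26 in WT and 8.98 in Patl2-/- MII oocytes and Phlda2 7.70 and 7.16, above that range. Ssx9 averaged 5.35 and 5.26 and Kbtbd3 5.02 and 4.94, under it in both genotypes. Their values near 0 therefore cannot show whether the genotypes differed at MII. The test of the difference between stages called no cluster (3952 with an unadjusted p under 0.05, smallest adjusted p = 0.335, limma), and since clusters were called on their size at GV, smaller values at MII follow in part from that choice.

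Promoter sequences were set beside the calls to show what the called genes share in their start regions. RefSeq gave a sequence, from 250 bases before to 50 after the gene start (GRCm38.p6), for 28 of the 35 protein-coding genes that fell, 8 of the 10 that rose and 6919 of the 8364 above background. The median GC content was 64.5%, 58.7% and 60.7%, and the median number of CG dinucleotides 24, 16 and 21. A GC box (GGGCGG or its reverse complement CCGCCC, overlapping matches counted) was found in 24 of the 28 (85.7%) and 4 of the 8, against 62.8% of those above background and 35.9% of all 27025 promoters in the table. A CCAAT box (CCAAT or ATTGG) was found in 10 of the 28 and 4 of the 8, against 40.5% and 37.9%. These shares are descriptions of few promoters and were not tested. The sequences below are those of Patl2 on the minus strand at chr2:122186140-122186439, of the falls Ppp1r14b at chr19:6974798-6975097 and Plxna2 at chr1:194619579-194619878, chosen for their abundance and tight groups, and of the rises Sesn3 at chr9:14276051-14276350 and Tfap2b at chr1:19211804-19212103, the largest with a sequence shown here. The last 4 lie on the plus strand, all are written 5′ to 3′ in the direction of transcription, and capitals mark GC boxes.
Patl2: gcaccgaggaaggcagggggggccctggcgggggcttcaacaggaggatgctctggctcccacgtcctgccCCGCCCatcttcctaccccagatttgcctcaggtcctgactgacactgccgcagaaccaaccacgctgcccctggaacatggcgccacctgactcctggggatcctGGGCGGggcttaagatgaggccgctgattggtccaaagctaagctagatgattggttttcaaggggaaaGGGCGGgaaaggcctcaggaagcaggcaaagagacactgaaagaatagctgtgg
Ppp1r14b: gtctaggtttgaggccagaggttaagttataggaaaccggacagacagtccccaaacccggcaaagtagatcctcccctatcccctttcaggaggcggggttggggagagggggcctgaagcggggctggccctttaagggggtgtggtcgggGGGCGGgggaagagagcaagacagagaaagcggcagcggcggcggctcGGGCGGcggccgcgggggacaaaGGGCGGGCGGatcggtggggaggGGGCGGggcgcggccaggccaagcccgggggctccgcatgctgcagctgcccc
Plxna2: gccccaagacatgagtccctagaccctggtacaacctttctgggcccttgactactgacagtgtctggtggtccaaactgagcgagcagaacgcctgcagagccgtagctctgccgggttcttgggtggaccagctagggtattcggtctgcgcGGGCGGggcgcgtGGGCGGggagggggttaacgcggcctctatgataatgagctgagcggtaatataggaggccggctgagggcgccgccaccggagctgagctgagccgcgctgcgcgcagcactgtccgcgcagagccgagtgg
Sesn3: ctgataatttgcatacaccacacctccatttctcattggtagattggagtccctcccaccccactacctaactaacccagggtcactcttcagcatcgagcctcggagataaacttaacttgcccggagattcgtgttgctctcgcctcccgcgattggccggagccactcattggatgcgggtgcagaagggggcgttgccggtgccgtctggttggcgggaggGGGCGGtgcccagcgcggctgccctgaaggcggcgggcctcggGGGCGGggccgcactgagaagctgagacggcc
Tfap2b: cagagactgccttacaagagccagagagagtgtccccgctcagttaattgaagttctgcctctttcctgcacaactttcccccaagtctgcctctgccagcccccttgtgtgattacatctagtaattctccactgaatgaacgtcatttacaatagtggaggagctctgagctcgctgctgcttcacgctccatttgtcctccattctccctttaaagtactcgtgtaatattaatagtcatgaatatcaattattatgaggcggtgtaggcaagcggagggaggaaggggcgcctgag
Patl2 holds 3 GC boxes, Ppp1r14b 5, a pair of which overlap, Plxna2 2 and Sesn3 2. Tfap2b holds none in this window, with a GC content of 48.3% and 8 CG dinucleotides, against 69.3% and 23 for Ppp1r14b.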

How the data were processed

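Total RNA of pooled GV oocytes, 250 pg per sample, was labelled and hybridised to 1-colour Affymetrix Clariom D mouse arrays. The deposited values are log2 expression levels that the authors made by RMA (background correction, quantile normalization and probe summary) over all 10 arrays in Affymetrix Expression Console, whose version is not given in the sources used here. Arrays were grouped from their titles. Of 72688 features 6732 control features were left out, and 5222 negative control probe sets gave the background level, their 90th percentile in the same arrays. Of 65956 clusters 31355 had 1 gene, 1528 several and 33073 none, after symbols were updated through RefSeq and 69 clusters were named from tables of the study.

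A model with 1 mean for each of the 4 groups was fitted to the 10 arrays with limma 3.58.1 in R 4.3.3 (2.02 prior and 6 residual degrees of freedom); the spread was thus pooled, and Benjamini-Hochberg adjustment of the two-sided p-values ran over every cluster. Gene lists used the brightest of a gene's 1-gene clusters, and were described by counts and medians. Members and lists were chosen with earlier results of these data known. Named genes were Patl2, established genes called at an adjusted p under 0.05 (array values for up to 15 per direction), the 10 clusters per direction with the largest difference among those past the threshold of the study alone, without overlap and above background, and at most 4 genes from each list described. Other genes and clusters named were chosen after their values were seen. On simulated data 68.4% of log2 changes of 1 and 96.9% of changes of 2 were recovered, with 7.8 false calls per simulation on average. The simulated noise had the fitted spread and was independent between clusters and arrays, so no array carried a shift shared by many clusters. These rates therefore check the fit and do not give the recovery or the false calls of the real arrays. As alternatives, the replicate number served as a block, and there were other normalizations, filters on level and annotation, other variance models, the GV arrays alone, the ANOVA of the methods and each array left out. Figures were drawn with matplotlib 3.10.9.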

Additional observations from a re-analysis of the deposited data

Results flagged for a closer look

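The hybridisation controls, labelled sequences spiked into every sample and left out of all comparisons, averaged 11.25 and 11.46 in WT and 11.98, 11.71 and 11.87 in Patl2-/- GV arrays, 0.497 higher in Patl2-/- arrays. The genotypes did not overlap (exact two-sided permutation test over 10 arrangements, p = 0.1, the smallest that 2 against 3 arrays allow). This drew attention because it is a signal outside the transcript clusters that follows genotype. Probe sets for poly-A control transcripts (4.56 to 5.12) and the 90th percentile of the negative controls (6.14 to 6.32) overlapped between genotypes. The poly-A controls lay below that percentile on every GV array, so their overlap cannot show whether labelling was alike. The median of the exon control probe sets did not overlap between genotypes. It was 10.58 and 10.66 in WT and lower, at 10.42, 10.57 and 10.46, in Patl2-/- arrays (same test, exact p = 0.2). The part of either control in the differences of the report was not tested. No group had enough arrays for a test of single outlying arrays, and no named gene passed the test of a difference between GV and MII.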

How the results depend on the processing

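The 68 named clusters kept their direction in every alternative that tested them, but the calls varied. The filters at a mean level of at least 6 and 8 and at the negative controls left some of them out. At an adjusted p under 0.05 the falls and rises numbered 1 and 0 with a replicate block, 158 and 98 at a mean level of at least 6, 150 and 105 at a mean level of at least 8, 192 and 105 above the negative controls, 108 and 66 among clusters with 1 gene, 25 and 5 with trend and robust estimation, 0 and 0 from the GV arrays alone and 1 and 2 by the ANOVA of the methods, against 60 and 20. With 1 array left out the falls ranged from 0 to 70 and the rises from 0 to 22, and no called cluster kept its call in all 10 of these fits. They numbered 12 and 2 without WT GV replicate 2, 0 and 0 without Patl2-/- GV replicate 1, 32 and 14 without Patl2-/- GV replicate 2, 12 and 3 without Patl2-/- GV replicate 3, and 11 to 43 and 4 to 20 without single MII arrays. Without WT GV replicate 1 they numbered 70 and 22, of which 28 were among the 80 calls. Fewer or more clusters tested change the adjustment, and the cause of the other changes was not tested. Same-numbered arrays of the genotypes deviated together only weakly (r = 0.134 and 0.112), no label pairs them, and the block is given for its count alone. At the threshold of the study the lower and higher clusters numbered 190 and 72 at a mean level of at least 8 and 190 and 70 among clusters with 1 gene, the higher ones 86 by the ANOVA of the methods, and with 1 array left out the ranges were 335 to 772 and 133 to 230. With the 95th percentile of the negative controls as background, 141 lower and 76 higher clusters had a dimmer group not above it, in place of 87 and 47, and with their median 5 and 6. The list and length-group medians without single GV arrays were chosen after seeing the data. Signal over background limits the result, since 24.5% of clusters exceeded it.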
